A study of Mus musculus with 24 samples.

Results

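The genes described here are 10 members of the MHC class I antigen presentation pathway and of the immunoproteasome, out of 23361 gene rows measured by RNA sequencing. They were chosen by symbol: the heavy chains H2-K1 and H2-D1, their light chain B2m, the peptide transporter Tap1 and Tap2, the loading factor Tapbp, the proteasome subunits Psmb8, Psmb9 and Psmb10, and the transactivator Nlrc5. Each symbol matched 1 row, and all 10 passed the filter on low values. The 24 libraries came from acute myeloid leukaemia (AML) cells of mouse spleens, and every group carried the genotype NRASG12V/Mll-AF9, a constitutively active NRAS together with the fusion of MLL and AF9, on an F1 background labelled (FVB/n X C57/BL/6J). The groups were cells sorted as MacLowKit+Sca1+ (n = 4), MacLowKit+Sca1- (n = 5), MacLowKit-Sca1- (n = 5) and MacHigh (n = 5), and unsorted cells (n = 5). The sorted names are shortened below to Kit+Sca1+, Kit+Sca1- and Kit-Sca1-. Mac is read here as the myeloid integrin Mac-1, Kit a receptor of immature blood cells and Sca1 a stem cell marker. No treatment, age or normal control was given, and neither the promoters behind the 2 leukaemia genes nor any pooling of animals is given in the sources used here. Whether each replicate was another animal is not stated, and p-values here therefore cover only the sample-to-sample spread, part or all of which may be technical. Values are FPKM, the fragments of a gene scaled to its length and to the fragments mapped in a library.

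MHC class I molecules show peptides from inside a cell to CD8 T cells and natural killer cells. The proteasome cuts proteins into peptides, TAP carries them into the endoplasmic reticulum, and tapasin (Tapbp) holds empty heavy chains beside TAP until a peptide is bound. Under interferon gamma, and constitutively in many immune cells, Psmb8, Psmb9 and Psmb10 take the places of Psmb5, Psmb6 and Psmb7 in newly built proteasomes, and NLRC5 works with factors on the conserved promoters of the class I genes. Loss of class I genes is a known way for tumours, leukaemias included, to be missed by T cells.

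Of the 10 genes, 7 lie in the major histocompatibility complex on mouse chromosome 17. RefSeq coordinates are given in GRCm38.p6, the assembly of the mm10 build named in the submitters' processing notes. Psmb9 (chr17:34182030-34187330, minus strand), Tap1 (chr17:34187556-34197225), Psmb8 (chr17:34198195-34201454) and Tap2 (chr17:34204479-34216321) are neighbours within 34.3 kb. H2-K1 (chr17:33996012-34000619, minus strand) and Tapbp (chr17:33919478-33929290) lie to one side of them, and H2-D1 (chr17:35263094-35267497) lies 1047 kb beyond Tap2. Outside the complex are B2m (chr2:122147687-122153082), Nlrc5 (chr8:94434335-94527272) and Psmb10 (chr8:105935728-105938392, minus strand). Psmb9 and Tap1 are transcribed away from each other, from starts separated by 225 bases.

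Promoter stretches are shown for the heavy chains and B2m, whose proteins form 1 complex, and for the stretch between Psmb9 and Tap1, which both genes share. They were cut from RefSeq promoter windows of 300 bases, 250 before and 50 after a start, which matched 8 of the 10 members (Tap2 and Nlrc5 had none). H2-K1 had 2 windows, and the first listed was used. That window lies inside the H2-K1 coordinates given above, so its start is not the outermost start of the gene. The last CCAAT shown for H2-K1 lies after the start of that window's transcript. Capitals mark the letters GGGGATTCC (core of an NF-kappaB element), GAANNGAAA and GAAANNGAA (forms of interferon response elements), TGACG (the X2 box core) and ATTGG (the Y box, CCAAT on the other strand), searched on both strands and chosen with the sequences in view.
H2-K1, chr17:34000325-34000468, minus strand: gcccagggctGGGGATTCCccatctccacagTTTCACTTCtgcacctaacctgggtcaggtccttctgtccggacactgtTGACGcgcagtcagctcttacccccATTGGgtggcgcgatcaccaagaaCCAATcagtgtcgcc
H2-D1, chr17:35262913-35263055, plus strand: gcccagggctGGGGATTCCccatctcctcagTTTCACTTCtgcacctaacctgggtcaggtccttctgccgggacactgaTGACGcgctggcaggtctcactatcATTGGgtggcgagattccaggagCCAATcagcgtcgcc
B2m, chr2:122147538-122147648, plus strand: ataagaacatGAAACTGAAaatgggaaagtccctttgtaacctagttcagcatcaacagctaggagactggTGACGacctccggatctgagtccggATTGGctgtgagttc
Tap1 and Psmb9, chr17:34187331-34187555, plus strand: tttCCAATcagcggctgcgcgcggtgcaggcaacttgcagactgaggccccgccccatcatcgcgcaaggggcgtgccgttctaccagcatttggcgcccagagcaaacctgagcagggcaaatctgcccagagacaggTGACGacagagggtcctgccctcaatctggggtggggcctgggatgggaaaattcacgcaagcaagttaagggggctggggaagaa
The windows of H2-K1 and H2-D1 were identical at 206 of 228 aligned positions, and both held GGGGATTCC, which was in 0.259% of 27025 promoter windows. Both also held GAANNGAAA, in 7.56% of the windows, and B2m held GAAANNGAA, in 8.57%. TGACG, in 21% of the windows, was in those of 5 of the 8 members: H2-K1, H2-D1, B2m, Tap1 and Psmb9. ATTGG, in 37.9% of the windows, was in those of these 5 and of Tapbp. The Tap1 and Psmb9 windows share 275 bases, and their matches of TGACG and ATTGG are the same letters, read on opposite strands. With the likeness of the H2-K1 and H2-D1 windows, these counts of members are not counts of separate occurrences. A match is a description of the letters and not a site of binding.

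FPKM summed to between 445970 and 644381, between 10177 and 11124 rows were at 1 FPKM or more, and no libraries were identical (highest correlation 0.975). Read counts were not used here, so the depth is unknown; ratios of low values gave only relative depths from 0.801 to 1.97. The sort markers followed the gates, with Kit high in both Kit+ groups, Ly6a highest in Kit+Sca1+ and Itgam highest in MacHigh. Kit averaged 34.3 ± 7.05 FPKM in Kit+Sca1+, 39.8 ± 8.44 in Kit+Sca1- cells, 0.668 ± 0.158 in Kit-Sca1-, 5.79 ± 0.844 in MacHigh and 10.7 ± 1.75 in unsorted cells (SD). Ly6a, the gene of Sca1, averaged 7.67 ± 1.71, 0.916 ± 0.45, 1.02 ± 0.583, 2.35 ± 0.764 and 2.11 ± 0.648 FPKM in the same order. Itgam, a chain of Mac-1, averaged 62 ± 25.3, 267 ± 132, 267 ± 87.9, 633 ± 44.7 and 351 ± 35.9 FPKM. Of 13 markers listed for myeloid leukaemia cells and for the sort, Kit, Ly6a and Itgam among them, 12 were in the table. None was at the value for 0 throughout a group except Mpo and Elane. The myeloid genes Mpo and Elane were listed at 0.001 FPKM, the value that stands for 0 in the table, in all 5 Kit+Sca1- libraries. Whether a row at 0.001 throughout a group was not expressed or not quantified was not tested. No member was listed at that value in any library.

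The 10 genes spanned a wide range of expression, and all were detected in every library. Over the 24 libraries B2m averaged 1382 FPKM and ranked 29 of the 11599 rows tested, H2-D1 774 FPKM (rank 54) and H2-K1 341 FPKM (rank 156). The immunoproteasome subunits averaged 195 FPKM for Psmb8, 140.5 for Psmb9 and 71.6 for Psmb10. The loading genes averaged 93.5 FPKM for Tapbp, 71.9 for Tap2 and 55.7 for Tap1. Nlrc5, at 5.85 FPKM, was the lowest of the 10 and above 26.5% of the rows. In limma's F test among the sorted groups all 10 members differed, as did 83.2% of all rows tested, so a difference somewhere is not particular to these genes.

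**Figure D1:**
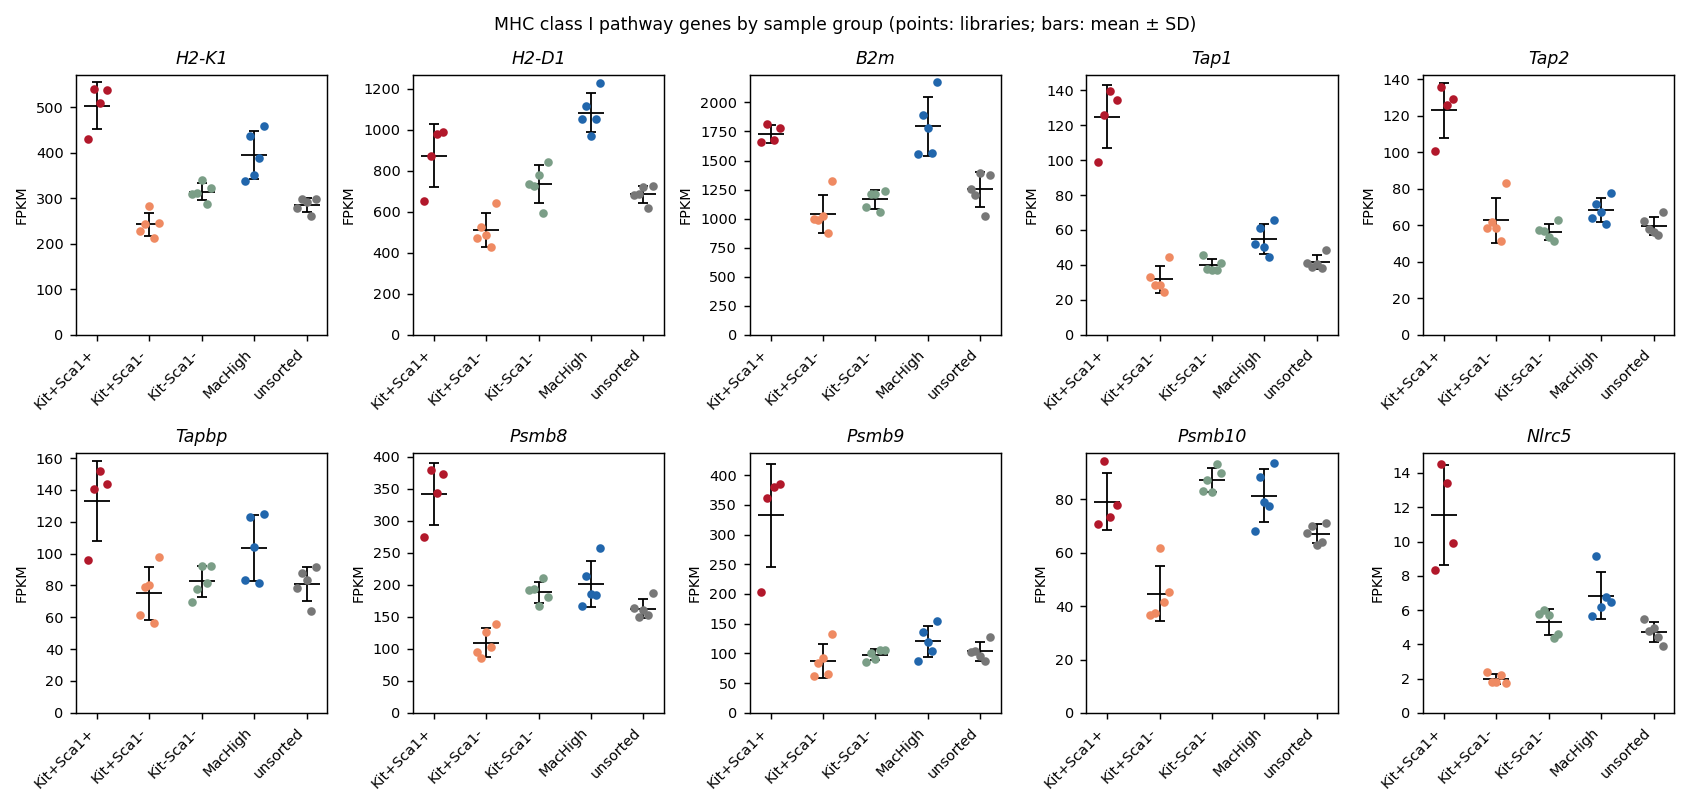
FPKM (linear axes from 0) of the 10 genes in each library, with groups from left to right Kit+Sca1+, Kit+Sca1-, Kit-Sca1-, MacHigh and unsorted; points are libraries and bars are the mean ± SD. Tap1, Tap2, Psmb8 and Psmb9 lie higher in every Kit+Sca1+ library than in any other library, while H2-D1 averages highest in MacHigh and Psmb10 lies lowest in Kit+Sca1-.

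Kit+Sca1+ cells had the highest mean of 7 of the 10 genes and Kit+Sca1- cells the lowest mean of 9, although the 2 groups share the Mac and Kit gates. Against Kit+Sca1-, all 10 members were higher in Kit+Sca1+ cells, where 26.8% of all rows were higher and 28.5% lower. Their median difference was 1.01 on the scale of log2(FPKM + 1), which understates the change of low genes, against -0.02 for all rows. For the members, each count of 0 given here and below from the main limma fit was also 0 at an unadjusted p under 0.05. Counts of 0 from alternative runs were not checked in this way. In 9 of the 10 every Kit+Sca1+ library lay above every Kit+Sca1- library, as it did for 20% of all rows; Tapbp was the exception. Against Kit-Sca1-, 8 members were higher in Kit+Sca1+ and 0 lower by limma (21.8% of rows higher and 23.3% lower; median 0.76, against -0.03 for all rows). The same 8 lay above every Kit-Sca1- library in every Kit+Sca1+ library, against 17.3% of all rows. Psmb10 (-0.15 ± 0.12 on the log2 scale, adjusted p = 0.334) and H2-D1 (0.24 ± 0.13 on the log2 scale, adjusted p = 0.148) did not pass, and H2-D1 passed without Kit+Sca1+ replicate 1 (0.37, adjusted p = 0.0211).

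Against MacHigh, the Mac-1 high fraction, 6 members were higher in Kit+Sca1+ and 1 was lower, where 23.6% of all rows were higher and 22.4% lower (median 0.52, against 0.03 for all rows). Those higher were H2-K1, Tap1, Tap2, Psmb8, Psmb9 and Nlrc5, and the lower one was H2-D1. Tap1, Tap2, Psmb8 and Psmb9 lay above every MacHigh library in every Kit+Sca1+ library, as 18.5% of all rows did. The genes in this comparison did not move as 1 block: differences ran from 1.44 for Psmb9 to -0.33 for H2-D1. Without Kit+Sca1+ replicate 1, the lowest library of its group for every member, 7 were higher and 0 lower. In bulk samples more cells with a gene and more RNA of it per cell cannot be told apart.

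Kit+Sca1- cells were lower than MacHigh in 9 members and higher in 0 by limma, where 30.3% of all rows were lower and 32.5% higher (median -0.79, against 0.03). Every Kit+Sca1- library lay below every MacHigh library for 7 members, as for 23.1% of all rows. Nlrc5 differed most (-1.38 ± 0.13), followed by H2-D1 (-1.10 ± 0.12), and Tap2 did not pass (-0.14 ± 0.11 on the log2 scale, adjusted p = 0.266). The call of Psmb9 (-0.50 ± 0.20 on the log2 scale, adjusted p = 0.0297) was lost without Kit+Sca1- replicate 1 (adjusted p = 0.0966) or 4 (0.0873) and without MacHigh replicate 2 (0.0702) or 5 (0.0905). That of Tapbp (-0.46 ± 0.16 on the log2 scale, adjusted p = 0.0146) was lost without Kit+Sca1- replicate 4 (0.0541), and Tap2 passed without Kit+Sca1- replicate 5 (0.025). Against Kit-Sca1-, Kit+Sca1- cells were lower in 6 members and higher in 0 (26.3% of rows lower and 24% higher): H2-K1, H2-D1, Tap1, Psmb8, Psmb10 and Nlrc5. Tap2 did not pass (0.13 ± 0.11 on the log2 scale, adjusted p = 0.325) but was higher with the prefix of the sample names as a block (0.19, adjusted p = 0.0183). Tap1 was lower by the smallest margin (-0.34 ± 0.13 on the log2 scale, adjusted p = 0.0348), and its adjusted p lay between 0.0635 and 0.112 when Kit+Sca1- replicate 2, 3 or 4 or Kit-Sca1- replicate 1 or 5 was left out.

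Kit-Sca1- cells were lower than MacHigh in 5 members and higher in 0 (26.2% of rows lower and 24.5% higher): H2-K1, H2-D1, B2m, Tap1 and Tap2. With the prefix of the sample names as a block, 8 were lower, Psmb9, Tapbp and Nlrc5 being added (adjusted p = 0.00703, 3.7e-05 and 0.0106). The call of Tap2 (-0.27 ± 0.11 on the log2 scale, adjusted p = 0.0389) was lost when any of 7 libraries was left out, Kit-Sca1- replicates 1 to 4 and MacHigh replicates 2, 3 and 5 (adjusted p between 0.0546 and 0.107). Nlrc5 (-0.31 ± 0.13 on the log2 scale, adjusted p = 0.0578) passed without Kit-Sca1- replicate 2 (0.0488) or MacHigh replicate 1 (0.0356).

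**Figure D2:**
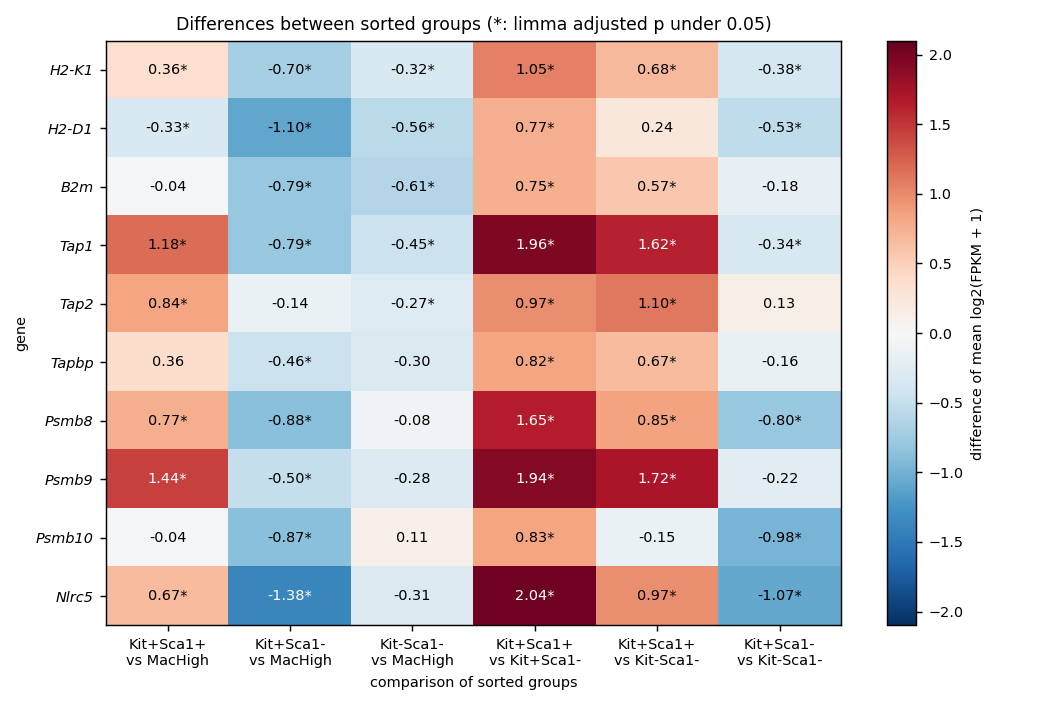
Differences of mean log2(FPKM + 1) between the first and the second sorted group named under each column, for the 10 genes in rows; red is higher and blue lower in the first group, and an asterisk marks an adjusted p under 0.05 in limma. The column of Kit+Sca1+ against Kit+Sca1- is positive in all 10 rows, from 0.75 for B2m to 2.04 for Nlrc5, and that of Kit+Sca1- against MacHigh is negative in all 10.

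The heavy chains did not follow the same order of groups. H2-K1 measured 429.7, 539, 508 and 537 FPKM in Kit+Sca1+, 228, 244, 282, 212 and 245 in Kit+Sca1- cells, 308, 311, 339, 288 and 322 in Kit-Sca1-, 337, 436, 351, 388 and 458 in MacHigh and 278, 298, 292, 261 and 298 in unsorted libraries. Kit+Sca1+ was the highest group, with its replicate 1 inside the range of MacHigh, and the Kit+Sca1- libraries were lowest, overlapping only the unsorted cells. The difference between Kit+Sca1+ and MacHigh was 0.36 ± 0.10 on the log2 scale, adjusted p = 0.00524, and that between Kit+Sca1+ and Kit+Sca1- was 1.05 ± 0.10 on the log2 scale, adjusted p = 7.76e-09. H2-D1 measured 654, 874, 978 and 989 FPKM in Kit+Sca1+, 469, 524, 485, 428 and 644 in Kit+Sca1- cells, 737, 724, 779, 595 and 843 in Kit-Sca1-, 1051, 1115, 969, 1055 and 1230.0 in MacHigh and 679, 686, 720.0, 618 and 723 in unsorted libraries. Here MacHigh was the highest group, and Kit+Sca1+ overlapped it only at its upper end. The lower H2-D1 of Kit+Sca1+ against MacHigh was at the edge of the test (-0.33 ± 0.13 on the log2 scale, adjusted p = 0.0471). It was not called without Kit+Sca1+ replicate 1 (-0.19, adjusted p = 0.235), the library with the lowest value of the group, nor without Kit+Sca1+ replicate 2 or MacHigh replicate 1, 2, 4 or 5 (0.0607 to 0.11). H2-D1 was lower in Kit+Sca1- (-1.10 ± 0.12) and in Kit-Sca1- (-0.56 ± 0.12) than in MacHigh, with adjusted p of 7.48e-08 and 0.000661. Within libraries, H2-D1 was 1.73 ± 0.188 times H2-K1 in Kit+Sca1+ (range 1.52 to 1.93), 2.12 ± 0.329 in Kit+Sca1- cells, 2.34 ± 0.198 in Kit-Sca1-, 2.77 ± 0.212 in MacHigh (range 2.56 to 3.12) and 2.4 ± 0.0663 in unsorted cells (SD). The ranges of Kit+Sca1+ and MacHigh do not overlap; this ratio was looked at after the values were seen and has no test. Reads of the 2 genes can be confused: 6.87% of the 50-base stretches of H2-K1 transcripts and 13.9% of those of H2-D1 are found in transcripts of other genes, and how such reads were assigned is not given in the sources used here. These stretches were counted in reference transcripts only, so reads from alleles of the F1 background that differ from the reference are not covered.

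B2m, the light chain that every class I heavy chain needs, was the most abundant of the 10. It measured 1656, 1816, 1676 and 1779 FPKM in Kit+Sca1+, 992, 990.3, 1022, 872 and 1319.8 in Kit+Sca1- cells, 1101, 1215, 1214, 1058 and 1240.5 in Kit-Sca1-, 1559, 1894, 1778, 1565 and 2176 in MacHigh and 1258, 1206, 1390.2, 1024 and 1378 in unsorted libraries. Kit+Sca1+ and MacHigh overlapped and lay above the other groups, with no overlap with any of them. The difference between Kit+Sca1+ and MacHigh was -0.04 ± 0.13 on the log2 scale, adjusted p = 0.818. B2m was higher in Kit+Sca1+ than in Kit+Sca1- (0.75 ± 0.13 on the log2 scale, adjusted p = 3.41e-05) and than in Kit-Sca1- (0.57 ± 0.13 on the log2 scale, adjusted p = 0.000922). Its level in Kit+Sca1- and Kit-Sca1- was not distinguished (-0.18 ± 0.12 on the log2 scale, adjusted p = 0.239).

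Both chains of the transporter were higher in Kit+Sca1+ than in any other sorted group, Tap1 by the larger differences. Tap1 measured 98.9, 126, 139.9 and 135 FPKM in Kit+Sca1+, 33, 28.4, 28.2, 24.4 and 44.2 in Kit+Sca1- cells, 45.5, 37.8, 36.9, 36.8 and 41.1 in Kit-Sca1-, 51.9, 61.2, 50.3, 44.7 and 65.9 in MacHigh and 40.9, 39, 40.5, 38.1 and 48.2 in unsorted libraries. The lowest Kit+Sca1+ library lay above the highest library of any other group. The differences of Kit+Sca1+ were 1.96 ± 0.14 on the log2 scale against Kit+Sca1- (adjusted p = 9.48e-11), 1.62 ± 0.14 against Kit-Sca1- (adjusted p = 2.52e-09) and 1.18 ± 0.14 against MacHigh (adjusted p = 4.05e-07). Tap2 measured 101, 136, 126 and 129 FPKM in Kit+Sca1+, 58.6, 61.5, 58.6, 51.1 and 83.2 in Kit+Sca1- cells, 57.3, 57, 53.7, 51.2 and 62.9 in Kit-Sca1-, 64.1, 71.5, 67.4, 60.7 and 77.7 in MacHigh and 62.3, 57.7, 56.1, 54.8 and 67 in unsorted libraries. Again all Kit+Sca1+ libraries were above all others, and the other 4 groups overlapped. Its differences in Kit+Sca1+ were 0.97 ± 0.11 on the log2 scale against Kit+Sca1- (adjusted p = 1.71e-07), 1.10 ± 0.11 against Kit-Sca1- (adjusted p = 3.99e-08) and 0.84 ± 0.11 against MacHigh (adjusted p = 2.42e-06). TAP works as a dimer of both chains, and the ratio of Tap2 to Tap1 within a library was 0.989 ± 0.075 in Kit+Sca1+, 2.00 ± 0.163 in Kit+Sca1- cells, 1.43 ± 0.109 in Kit-Sca1-, 1.26 ± 0.0893 in MacHigh and 1.44 ± 0.0599 in unsorted cells (SD). It ran from 0.902 to 1.08 in Kit+Sca1+ and from 1.78 to 2.17 in Kit+Sca1- cells, with no overlap with any other group in either case; the ratio was looked at after the values were seen and has no test.

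Tapbp, the gene of tapasin, measured 95.9, 141, 152 and 144 FPKM in Kit+Sca1+, 61.5, 79.3, 80.5, 56.1 and 98 in Kit+Sca1- cells, 69.4, 77.9, 92.1, 81.6 and 92.5 in Kit-Sca1-, 83.2, 123, 104, 81.4 and 125 in MacHigh and 78.5, 87.7, 83.7, 64.3 and 91.8 in unsorted libraries. In the order of means, every group overlapped its neighbour. Tapbp was higher in Kit+Sca1+ than in Kit+Sca1- (0.82 ± 0.17 on the log2 scale, adjusted p = 0.000229) and in Kit-Sca1- (0.67 ± 0.17 on the log2 scale, adjusted p = 0.00247). Against MacHigh it did not pass (0.36 ± 0.17 on the log2 scale, adjusted p = 0.0797), but it passed without Kit+Sca1+ replicate 1 (0.51, adjusted p = 0.018) and without MacHigh replicate 5 (0.44, adjusted p = 0.0461). In the 3 sample-name prefixes that had both groups, the Kit+Sca1+ library was higher than the MacHigh library in 3, with FPKM 1.15 to 1.24 times as high. Strand was not given for these libraries: 24.9% of the exonic bases of Tapbp overlap an antisense gene, 14.1% of those of Tap2 and 14.7% of those of Psmb8 overlap genes on the other strand, and Tap1 and Psmb9 share 212 exonic bases.

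Among the immunoproteasome subunits, Psmb8 and Psmb9 separated Kit+Sca1+ from the rest, and Psmb10 did not. Psmb9, the subunit that replaces Psmb6, measured 203, 362, 379.6 and 385 FPKM in Kit+Sca1+, 61.1, 83, 92.3, 64.8 and 133 in Kit+Sca1- cells, 85.3, 100.3, 90.6, 106 and 106 in Kit-Sca1-, 87.9, 137, 119.7, 105 and 154 in MacHigh and 103, 104, 95, 86.6 and 128 in unsorted libraries. All Kit+Sca1+ libraries were above all others, replicate 1 by the least, and the other 4 groups overlapped. Psmb9 differed by 1.94 ± 0.21 on the log2 scale between Kit+Sca1+ and Kit+Sca1- (adjusted p = 5.61e-08), by 1.72 ± 0.21 between Kit+Sca1+ and Kit-Sca1- (adjusted p = 5.17e-07) and by 1.44 ± 0.21 between Kit+Sca1+ and MacHigh (adjusted p = 6.09e-06). Psmb8, which replaces Psmb5, measured 274, 379.7, 343 and 374 FPKM in Kit+Sca1+, 94.9, 85.3, 126, 102 and 139.6 in Kit+Sca1- cells, 192, 194, 167, 211 and 180.5 in Kit-Sca1-, 166, 213, 186, 184 and 257 in MacHigh and 164, 150.4, 161, 152 and 188 in unsorted libraries. Its Kit+Sca1+ libraries were all highest and its Kit+Sca1- libraries all lower than those of Kit-Sca1-, MacHigh and unsorted cells. The differences were 1.65 ± 0.14 on the log2 scale between Kit+Sca1+ and Kit+Sca1- (adjusted p = 1.20e-09), 0.77 ± 0.14 between Kit+Sca1+ and MacHigh (adjusted p = 8.31e-05) and -0.80 ± 0.13 between Kit+Sca1- and Kit-Sca1- (adjusted p = 2.45e-05).

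Psmb10, which replaces Psmb7 and lies outside the MHC, measured 70.6, 94.5, 73.6 and 77.9 FPKM in Kit+Sca1+, 36.9, 37.4, 61.9, 41.6 and 45.4 in Kit+Sca1- cells, 83.1, 87.2, 82.8, 93.4 and 90.0 in Kit-Sca1-, 68.3, 88.6, 79.2, 77.5 and 93.5 in MacHigh and 67.3, 70.1, 63.1, 64.2 and 71.2 in unsorted libraries. Kit+Sca1- was the group apart here, below all libraries of the other groups, and Kit+Sca1+, Kit-Sca1- and MacHigh overlapped. Psmb10 was lower in Kit+Sca1- than in Kit-Sca1- (-0.98 ± 0.11 on the log2 scale, adjusted p = 2.33e-07) and than in MacHigh (-0.87 ± 0.11 on the log2 scale, adjusted p = 5.34e-07). Between Kit+Sca1+ and MacHigh it differed by -0.04 ± 0.12 on the log2 scale, adjusted p = 0.804.

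Each subunit was set against the constitutive subunit whose place it takes, as a ratio of FPKM within a library, which does not depend on the scaling of the library. For Psmb8 over Psmb5 the ratio was 9.09, 11.3, 8.28 and 9.57 in Kit+Sca1+ libraries, 2.51, 1.94, 2.66, 2.21 and 3.96 in Kit+Sca1- cells, 4.55, 3.91, 3.09, 4.39 and 4.44 in Kit-Sca1-, 4.42, 5.06, 5.59, 4.25 and 8.14 in MacHigh and 4.63, 3.09, 5.07, 3.44 and 5.49 in unsorted libraries. Every Kit+Sca1+ library had a higher ratio than every other library. It differed between Kit+Sca1+ and MacHigh (log2 difference 0.83, exact permutation p = 0.0159, adjusted 0.0317) and for Kit+Sca1+ set against Kit+Sca1- (log2 difference 1.88, exact permutation p = 0.0159, adjusted 0.0317). With 4 libraries against 5 the smallest two-sided exact p is 0.0159, and with 5 against 5 it is 0.00794. Psmb5 is a weak denominator: 54.1% of its 50-base stretches are shared with 3 other genes, most with Gm3375, so its level is uncertain. For Psmb9 over Psmb6 the ratio averaged 4.24 ± 0.943 in Kit+Sca1+, 1.15 ± 0.399 in Kit+Sca1- cells, 1.03 ± 0.163 in Kit-Sca1-, 1.7 ± 0.48 in MacHigh and 1.32 ± 0.294 in unsorted cells (SD). Kit+Sca1+ stood above MacHigh (log2 difference 1.33, exact permutation p = 0.0159, adjusted 0.0317), and Kit-Sca1- below it (log2 difference -0.70, exact permutation p = 0.0159, adjusted 0.0317). Between Kit-Sca1- and MacHigh, Psmb9 itself was not called by limma (-0.28 ± 0.20 on the log2 scale, adjusted p = 0.238). Psmb6 averaged 96.2 ± 10.6 FPKM in Kit-Sca1- and 72.2 ± 8.01 in MacHigh (SD), so that lower ratio also reflects its denominator. For Psmb10 over Psmb7 the ratio averaged 0.589 ± 0.107 in Kit+Sca1+, 0.338 ± 0.0421 in Kit+Sca1- cells, 0.517 ± 0.078 in Kit-Sca1-, 0.686 ± 0.0944 in MacHigh and 0.487 ± 0.0468 in unsorted cells, so Psmb7 was the more abundant in every group. It was lower in Kit+Sca1- than in MacHigh (log2 difference -1.02, exact permutation p = 0.00794, adjusted 0.0317) and was not distinguished between Kit+Sca1+ and MacHigh (log2 difference -0.23, exact permutation p = 0.175, adjusted 0.228). Of 10 comparisons, 7 were called for Psmb8 over Psmb5, 5 for Psmb9 over Psmb6 and 6 for Psmb10 over Psmb7, adjusted over the 30 tests. These counts depend on single libraries: without any 1 of the 4 Kit+Sca1+ libraries they were 1, 0 and 4, and without 1 library of another group they lay between 4 and 7, 3 and 6, and 4 and 7, a smaller group also raising the smallest exact p.

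**Figure D3:**
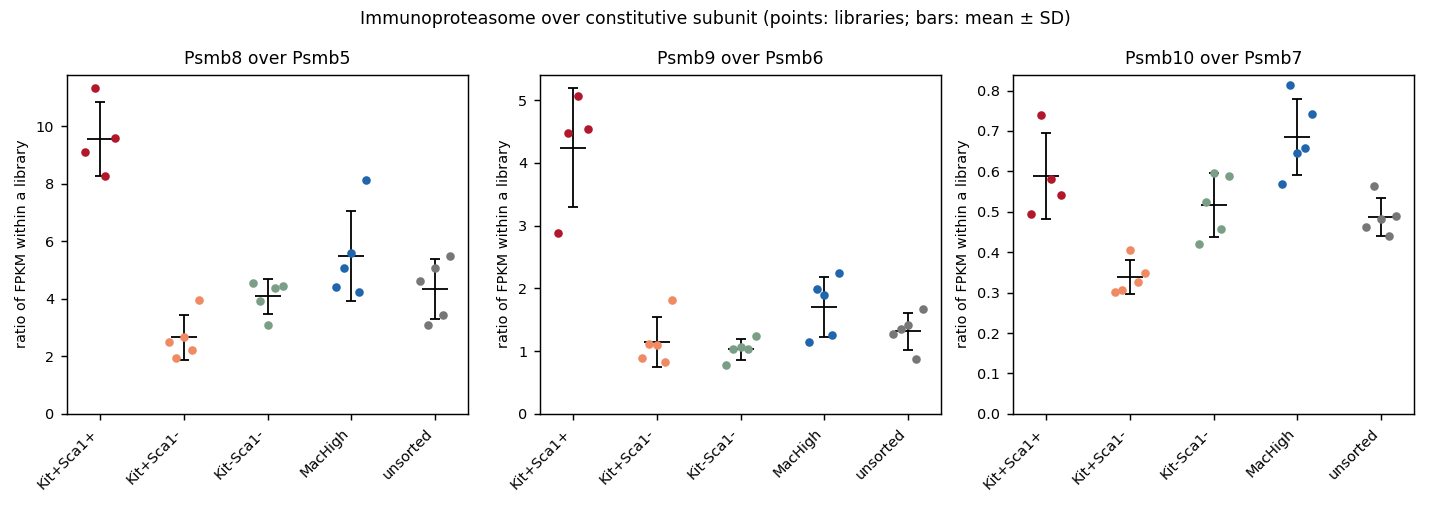
Ratio of FPKM of each immunoproteasome subunit to its constitutive counterpart within each library (linear axes from 0), for the 5 groups in the order Kit+Sca1+, Kit+Sca1-, Kit-Sca1-, MacHigh and unsorted; points are libraries and bars the mean ± SD. The first 2 ratios are highest in Kit+Sca1+, at 9.56 and 4.24 on average, while the third is highest in MacHigh, at 0.686, and lowest in Kit+Sca1-, at 0.338.

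Nlrc5, the transactivator of class I genes, measured 8.35, 14.5, 13.4 and 9.93 FPKM in Kit+Sca1+, 2.39, 1.8, 1.81, 2.2 and 1.77 in Kit+Sca1- cells, 5.76, 6.03, 5.72, 4.36 and 4.62 in Kit-Sca1-, 5.64, 9.17, 6.17, 6.76 and 6.44 in MacHigh and 5.48, 4.79, 4.96, 4.43 and 3.93 in unsorted libraries. The Kit+Sca1- libraries were all lower than every library of the other groups, and the Kit+Sca1+ libraries overlapped MacHigh only at 1 library of each. Nlrc5 had the largest difference of the 10 genes between Kit+Sca1+ and Kit+Sca1- (2.04 ± 0.14 on the log2 scale, adjusted p = 6.70e-11), and it was higher in Kit+Sca1+ than in MacHigh (0.67 ± 0.14 on the log2 scale, adjusted p = 0.00051). It was also lower in Kit+Sca1- than in Kit-Sca1- (-1.07 ± 0.13 on the log2 scale, adjusted p = 7.14e-07). The ratio of B2m to Nlrc5 within a library was 157 ± 37.7 in Kit+Sca1+, 534 ± 141 in Kit+Sca1- cells, 223 ± 31.8 in Kit-Sca1-, 268 ± 51.1 in MacHigh and 269 ± 50.2 in unsorted cells (SD). The Kit+Sca1- libraries did not overlap any other group; this is a description without a test.

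Unsorted cells were taken without these gates. Kit+Sca1+ cells were higher than unsorted cells in 8 members and lower in 0 (17.2% of rows higher and 15.7% lower), the exceptions being H2-D1 (0.33 ± 0.13 on the log2 scale, adjusted p = 0.0553) and Psmb10 (0.23 ± 0.12 on the log2 scale, adjusted p = 0.156). Both of these passed with the prefix block (adjusted p = 0.0242 for H2-D1 and 0.0483 for Psmb10), and H2-D1 also without Kit+Sca1+ replicate 1 (0.00714). Kit+Sca1- cells were lower in 6 and higher in 0 (23.8% of rows lower and 23.6% higher), with the largest differences in Nlrc5 (-0.93 ± 0.13), Psmb10 (-0.60 ± 0.11) and Psmb8 (-0.59 ± 0.13). Of these, the call of H2-K1 (-0.24 ± 0.09 on the log2 scale, adjusted p = 0.0387) was lost without Kit+Sca1- replicate 1, 2 or 4 or unsorted replicate 1, 2, 3 or 5 (adjusted p between 0.0529 and 0.107), and that of Tap1 without Kit+Sca1- replicate 4 (0.0546). B2m passed without Kit+Sca1- replicate 5 (0.0121) or unsorted replicate 4 (0.0296), and Psmb9 without Kit+Sca1- replicate 5 (0.0429). MacHigh cells were higher in 5 and lower in 0 (21.3% of rows higher and 18.2% lower): H2-K1, H2-D1, B2m, Tap1 and Nlrc5. With the prefix as a block all 10 were higher in MacHigh than in unsorted cells. The call of Tap1 was lost without MacHigh replicate 2 (0.0598) or 5 (0.0726) or unsorted replicate 4 (0.0519), and Psmb8 (0.0423) and Psmb10 (0.03) passed without MacHigh replicate 1. Kit-Sca1- cells differed from unsorted cells in Psmb10 alone of the 10 (0.37 ± 0.11 on the log2 scale, adjusted p = 0.0278; 5.67% of rows higher and 8.91% lower), and that call was lost without Kit-Sca1- replicate 2 or 4 or unsorted replicate 1, 3 or 4 (adjusted p between 0.0521 and 0.0752). These 4 comparisons share the unsorted libraries. Erythroid markers set the unsorted cells apart: 10 of them summed to 68.6 to 147 FPKM in Kit+Sca1+, 52.7 to 99.1 in Kit+Sca1- cells, 31.6 to 78.2 in Kit-Sca1-, 18.9 to 112 in MacHigh and 403 to 2093 in unsorted libraries, and 9 were lower in each sorted group than in unsorted cells. Of 6 platelet markers, 6 were lower in Kit+Sca1+, 4 in Kit+Sca1-, 4 in Kit-Sca1- and 5 in MacHigh than in unsorted cells. Their part in the members' differences from unsorted cells was not tested.

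Libraries within a group tended to be high or low in several of the 10 genes at once. Replicate 1 of Kit+Sca1+ had the lowest FPKM of its group for all 10. Replicate 5 of MacHigh had the highest for 9, replicate 5 of the unsorted cells for 8, of Kit+Sca1- for 7 and of Kit-Sca1- for 5, and the names of these libraries share a prefix; the Kit+Sca1+ library with that prefix, replicate 4, was highest for 2. Of the libraries that share the prefix of Kit+Sca1+ replicate 1, replicate 1 of MacHigh was lowest for 6, and replicate 1 of Kit+Sca1- and of Kit-Sca1- for 2 each. Replicate 4 of the unsorted cells, of Kit+Sca1- and of MacHigh, which share another prefix, were lowest for 7, 6 and 3. Across the 24 libraries, correlations of log2(FPKM + 1) between members ran from 0.225 (Tap2 with Psmb10) to 0.951 (Tap2 with Psmb9), with a median of 0.764 over 45 pairs. After the group means were subtracted they ran from 0.0738 to 0.9 with a median of 0.661. The libraries share groups and prefixes, so these are descriptions. Within the 3 prefixes that had both Kit+Sca1+ and MacHigh libraries, Tap1 was higher in Kit+Sca1+ in 3, with FPKM 1.91 to 2.28 times as high, and Psmb9 in 3, 2.31 to 2.78 times. H2-D1 was lower in Kit+Sca1+ in 3 of the 3, at 0.622 to 0.877 of the MacHigh value.

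Other genes had profiles as close. Over the 24 libraries, those most like H2-K1 were Clip2 (r = 0.954), Lrrk1 (r = 0.949) and Inpp5d (r = 0.949). Those most like Tap1 were Sh3bp4 (r = 0.973), Vrk2 (r = 0.967) and Trim7 (r = 0.965). For Psmb8 they were Prr5 (r = 0.97), Irf8 (r = 0.969) and Slc9a7 (r = 0.965), Irf8 being a transcription factor of the interferon regulatory family. For Nlrc5 they were Trpm2 (r = 0.96), Arhgap5 (r = 0.946) and Ttyh2 (r = 0.941). The measure is Pearson's r of log2(FPKM + 1), and the libraries share the same group structure.

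The rest of the class I family was described from lists of the pathway's other genes. Of 30 other class I and class I-like genes, 21 passed the filter on low values. In Kit+Sca1+ cells 18 of these were higher than in Kit+Sca1-, 16 higher than in Kit-Sca1- and 11 higher than in MacHigh, and 0 were lower by limma in any of the 3; at an unadjusted p under 0.05, 1 was lower than in MacHigh and 0 in the other 2 comparisons. Their median differences were 1.56, 0.79 and 0.32, where those of all rows were -0.02, -0.03 and 0.03, as for all lists below. Of all rows, 26.8%, 21.8% and 23.6% were higher and 28.5%, 23.3% and 22.4% lower in these comparisons, also for the lists below. Fcgrt, the neonatal Fc receptor, averaged 106 ± 27.1 FPKM in Kit+Sca1+, 4.84 ± 3.07 in Kit+Sca1- cells, 10.6 ± 4.19 in Kit-Sca1- and 42.1 ± 5.07 in MacHigh, and was higher in Kit+Sca1+ than in MacHigh (1.28 ± 0.27 on the log2 scale, adjusted p = 0.000417). H2-M3, which presents formylated peptides, averaged 37.9 ± 4.18, 7.35 ± 2.5, 12.5 ± 0.86 and 26.4 ± 5.88 FPKM in that order (0.52 ± 0.18 for Kit+Sca1+ against MacHigh, adjusted p = 0.0191). H2-Q4, a nonclassical member, was also higher in Kit+Sca1+ than in MacHigh (0.40 ± 0.12, adjusted p = 0.01), and H2-T23, the gene of Qa-1, did not pass (0.28 ± 0.22, adjusted p = 0.316). Many of these genes are close copies of each other, so reads may have been split among them. Kit+Sca1- cells were lower than MacHigh in 15 of the 21 and higher in 0 (30.3% of all rows lower and 32.5% higher).

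Of 15 peptide loading and trimming genes, 3 were higher and 3 lower in Kit+Sca1+ than in MacHigh, with a median of -0.01, near the share of all rows (23.6% higher and 22.4% lower). The endoplasmic reticulum chaperones Calr (819 ± 192 FPKM in Kit+Sca1+, 711 ± 143 in MacHigh), Hspa5 (463 ± 90.9, 497 ± 114) and Pdia3 (444 ± 61.4, 402 ± 52.7) did not pass (adjusted p = 0.503, 0.77 and 0.488). Among those higher was Tapbpl, a tapasin-related peptide editor, at 27.6, 33.9, 31.6 and 29.7 FPKM in Kit+Sca1+ and 16.5, 16.2, 14.5, 15.2 and 16.8 in MacHigh libraries (0.91 ± 0.08 on the log2 scale, adjusted p = 2.74e-09). The cytosolic aminopeptidase Npepps was lower in Kit+Sca1+ than in Kit+Sca1- (-1.19 ± 0.16 on the log2 scale, adjusted p = 1.68e-06).

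Proteasome genes outside the immunoproteasome were called mostly in comparisons with Kit-Sca1- cells. Between Kit+Sca1+ and MacHigh, 0 of the 3 constitutive catalytic subunits and 0 of the 11 other 20S core genes were called by limma, also at an unadjusted p under 0.05; Psmb7 averaged 135 ± 9.42 FPKM in Kit+Sca1+ and 119 ± 6.46 in MacHigh (adjusted p = 0.136), and Psma7 224 ± 11.2 and 254 ± 12.2 (adjusted p = 0.125). Of the 17 genes of the 19S cap, 1 was called, Psmd8, which was lower in Kit+Sca1+ (-0.34 ± 0.08 on the log2 scale, adjusted p = 0.00185). Against Kit-Sca1-, all 3 catalytic subunits, 8 of the 11 core genes and 17 of the 17 cap genes were lower in Kit+Sca1+, for example Psmc6, an ATPase of the cap (-0.68 ± 0.10 on the log2 scale, adjusted p = 5.55e-06). Kit-Sca1- cells were higher than MacHigh in 3 of 3, 7 of 11 and 16 of 17 of these genes (24.5% of all rows higher and 26.2% lower). Among 10 activators and assembly factors, Psme1, a chain of the interferon-inducible PA28 activator, measured 241, 281, 271 and 304 FPKM in Kit+Sca1+ and 129, 158, 158, 137 and 193 in MacHigh libraries, with no overlap (0.83 ± 0.14 on the log2 scale, adjusted p = 3.18e-05). The maturation factor Pomp did not pass there (0.16 ± 0.14 on the log2 scale, adjusted p = 0.36) and was higher in Kit+Sca1+ than in Kit+Sca1- (0.82 ± 0.14 on the log2 scale, adjusted p = 3.55e-05). The assembly chaperone Psmg1 and the nuclear activator Psme3 were higher in Kit+Sca1+ than in MacHigh (0.49 ± 0.16 and 0.29 ± 0.11, adjusted p = 0.0135 and 0.0375).

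Upstream regulators were called against MacHigh at about the share of all rows. Of 31 regulators, 7 were higher and 8 lower in Kit+Sca1+ than in MacHigh (median -0.07), where 23.6% of all rows were higher and 22.4% lower, and 17 were higher and 5 lower than in Kit+Sca1- (median 0.44). Irf8 measured 443, 664, 753 and 734 FPKM in Kit+Sca1+, 40.5, 34.2, 81.9, 45.9 and 163 in Kit+Sca1- cells, 214, 201, 177, 283 and 251 in Kit-Sca1- and 193, 229, 199, 173 and 275 in MacHigh libraries. Kit+Sca1+ stood above all other groups (1.58 ± 0.30 on the log2 scale, adjusted p = 0.000183 against MacHigh), and Kit+Sca1- was lower than MacHigh (-1.77 ± 0.29). Ciita, the class II counterpart of Nlrc5, averaged 112 ± 40.6 FPKM in Kit+Sca1+, 8.58 ± 5.65 in Kit+Sca1- cells and 57.9 ± 22.9 in MacHigh (0.96 ± 0.34 on the log2 scale, adjusted p = 0.025 for Kit+Sca1+ against MacHigh). Of the interferon receptor genes, Ifnar1 was lower in Kit+Sca1+ than in MacHigh (-0.69 ± 0.09 on the log2 scale, adjusted p = 3.06e-06). Ifngr1 averaged 318 ± 50.7 FPKM in Kit+Sca1+ and 270.2 ± 28.2 in MacHigh and did not pass there (adjusted p = 0.238). Both of these Ifngr1 means lay above its mean over the 24 libraries, 216 FPKM. The receptor genes Ifnar2 and Ifngr2 were also tested and are not described here. Nfkb1, a subunit of NF-kappaB, was lower in Kit+Sca1+ than in MacHigh (-0.31 ± 0.12 on the log2 scale, adjusted p = 0.0383).

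Of 24 interferon targets other than the members, 22 passed the filter. In Kit+Sca1+ 17 were higher and 1 lower than in Kit+Sca1- (median 1.08, with 26.8% of all rows higher and 28.5% lower). Against Kit-Sca1-, 16 were higher and 1 lower (median 0.82, with 21.8% of all rows higher and 23.3% lower). Against MacHigh, 5 were higher and 4 lower (median -0.01), near the shares of all rows, 23.6% and 22.4%. Cxcl9, a chemokine induced by interferon gamma, averaged 39.1 ± 8.8 FPKM in Kit+Sca1+ and 2.28 ± 1.19 in MacHigh (3.66 ± 0.22 on the log2 scale, adjusted p = 1.95e-11). Irgm1 (30.3 ± 4.93 and 26.3 ± 5.22 FPKM, adjusted p = 0.232), Bst2, also counted among the dendritic cell markers below (81 ± 13 and 83.8 ± 25.2, adjusted p = 0.969) and Ifi47 (26 ± 3.75 and 21 ± 4.43, adjusted p = 0.143), all interferon-induced, did not pass between these groups. In Kit+Sca1- cells 2 of the 22 were higher and 18 lower than in MacHigh (median -1.09, where 32.5% of all rows were higher and 30.3% lower). Ifit2, an RNA-binding interferon target, was 1 of the 2 higher there: it measured 17.4, 17.6, 12.9, 14.3 and 16.4 FPKM in Kit+Sca1- cells, against 3.88, 4.76, 5.03, 4.63 and 3.41 in MacHigh libraries (1.65 ± 0.11 on the log2 scale, adjusted p = 2.20e-11).

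**Figure D4:**
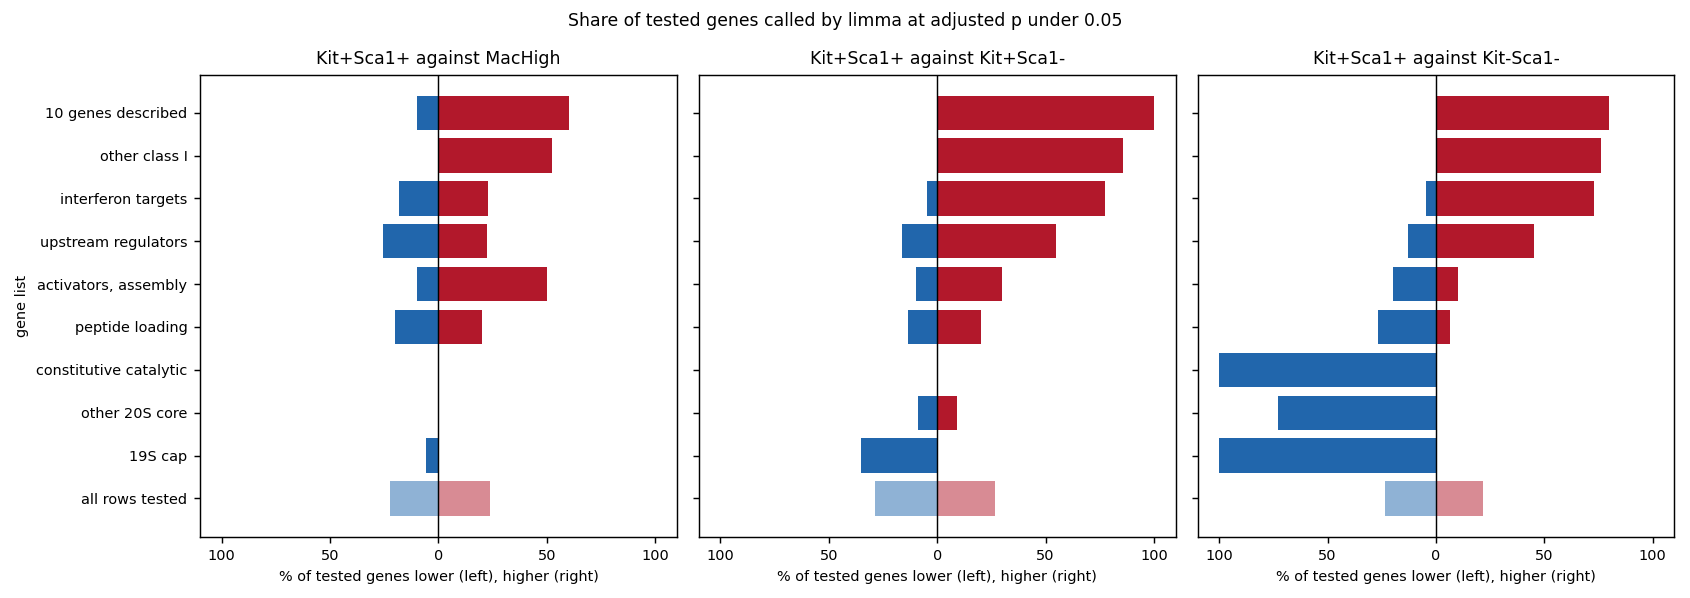
Share of the tested genes of each list called by limma in Kit+Sca1+ against MacHigh, Kit+Sca1- and Kit-Sca1- (panels), with genes higher in Kit+Sca1+ to the right in red and lower to the left in blue, on a linear axis in percent; the lowest bars are all 11599 rows. The 10 genes and the other class I genes extend to the right in all 3 panels, while all 17 genes of the 19S cap lie to the left in the panel against Kit-Sca1-.

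Among markers of other spleen cells, the sums for dendritic cells, red pulp macrophages and T cells reached their highest values in Kit+Sca1+. The sums for natural killer cells did so in Kit+Sca1- and those for B cells in MacHigh. The summed FPKM of 12 dendritic cell markers was 500.3 to 913 in Kit+Sca1+, 41.8 to 140.3 in Kit+Sca1- cells, 109.8 to 168 in Kit-Sca1-, 265 to 609.7 in MacHigh and 203 to 258 in unsorted libraries. Of the 11 tested, 7 were higher and 1 lower in Kit+Sca1+ than in MacHigh, where 23.6% of all rows were higher and 22.4% lower. Against Kit+Sca1-, 10 were higher and 0 lower, where 26.8% of all rows were higher and 28.5% lower. Xcr1 and Clec9a, which mark cross-presenting dendritic cells, averaged 105 ± 41.8 and 122 ± 53.8 FPKM in Kit+Sca1+, against 12.2 ± 3.68 and 17.8 ± 6.83 in MacHigh. None of the 12 was at 0.001 throughout a group. The summed FPKM of 11 red pulp macrophage markers was 817 to 2083 in Kit+Sca1+, 74.6 to 122 in Kit+Sca1- cells, 61.6 to 119 in Kit-Sca1-, 527 to 1024 in MacHigh and 398 to 532 in unsorted libraries, with 7 of 11 higher and 1 lower in Kit+Sca1+ than in MacHigh. Kit+Sca1+ replicate 1, the library lowest in all 10 members, also had the lowest dendritic sum of its group, 500.3 FPKM, with the others at 806, 913 and 818. Its red pulp sum was 1473 FPKM, the second highest of the group, with the others at 2083, 817 and 1220.2. Sums of 12 natural killer cell markers were 134 to 301, 272 to 517, 68.2 to 240.3, 39.7 to 66.7 and 76.6 to 152 FPKM in the 5 groups, and those of 11 T cell markers 44.6 to 66.4, 11.5 to 32, 25.2 to 30.8, 11.4 to 12.5 and 22.6 to 30.8, with Cd3e at 0.001 throughout Kit+Sca1+ and Kit+Sca1-. Those of 8 B cell markers reached at most 32.3 FPKM in any Kit+Sca1+ library and 61.7 in any MacHigh library, with Pax5 and Ebf1 at 0.001 throughout every group. Of the 12 natural killer cell markers, 10 were higher and 1 lower in Kit+Sca1+ than in MacHigh, and 10 higher and 1 lower than in Kit+Sca1-. In Kit+Sca1- cells 1 was higher and 11 lower than in Kit-Sca1- (24% of all rows higher and 26.3% lower). The high sums of Kit+Sca1- thus do not give the direction of most of these markers. Of 10 erythroid markers tested 3 were higher and 0 lower in Kit+Sca1+ than in MacHigh by limma, and of 6 platelet markers 1 was higher and 3 lower. Of all rows, 23.6% were higher and 22.4% lower there. Dendritic cells and macrophages are known for high class I and immunoproteasome expression; the part of these cells in the differences was not tested.

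**Figure D5:**
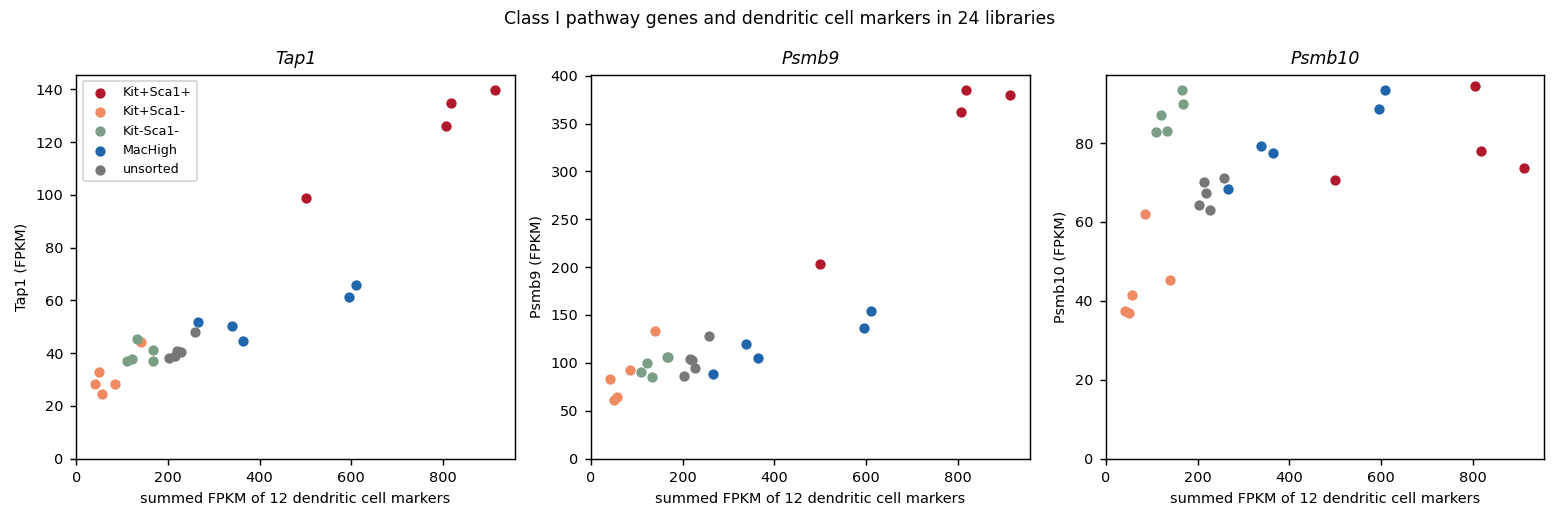
FPKM of Tap1, Psmb9 and Psmb10 (vertical) against the summed FPKM of 12 dendritic cell markers (horizontal) in the 24 libraries, both on linear axes from 0, coloured by group. For Tap1 and Psmb9 the 4 Kit+Sca1+ libraries are highest on the vertical axis, at marker sums of 500.3 to 913 FPKM, and the MacHigh libraries lie at sums of 265 to 609.7 FPKM; for Psmb10 the Kit-Sca1- libraries are as high at sums of 110 to 168 FPKM.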

How the data were processed

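Expression was deposited by the authors as FPKM in 1 table of 23361 gene rows and 24 libraries; per the submitters' processing notes, TopHat2 2.0.4, Cuffdiff and the mm10 build were used, and annotation, normalization and strand are not given in the sources used here. Columns were matched to samples by name, with 0 unmatched. A value of 0.001 stands for 0; 5048 rows were at or below it in all libraries.

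Values were transformed to log2(FPKM + 1), and the 11599 rows that reached 1 FPKM in 4 or more libraries were fitted with limma 3.58.1 in R 4.3.3, with the 5 groups in 1 model, moderated variances and a trend on the mean. Errors of differences are standard errors. In 10 comparisons and 1 F test, p-values were Benjamini-Hochberg adjusted over all rows tested, and rows were called at an adjusted p under 0.05. Ratios of subunits were tested with exact two-sided permutation tests over libraries in Python 3.11.15 with scipy 1.17.1. These tests took no account of the sample-name prefixes described below, and no version with the prefix as a block was run for them. The limma step was tested on simulated data.

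The members, gene lists and markers were chosen with earlier results of these data known. The genes named are the 10 members, Psmb5, Psmb6 and Psmb7, in each pathway list the 3 genes highest in mean FPKM and the 2 with the largest F statistic, and the 3 genes most correlated with H2-K1, Tap1, Psmb8 and Nlrc5; not every gene so named is described. The sort markers, Mpo, Elane and the other-cell markers named were chosen after their values were seen.

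The sample names carry 6 prefixes that recur across groups, of unstated meaning. Same-prefix libraries deviated together (correlation over 0.1) in 34 of 38 pairs, and in every pair of 7 of the 10 comparisons; the lowest pair was 0.048 in Kit+Sca1+ against MacHigh, -0.05 in Kit+Sca1- against MacHigh and -0.02 in Kit+Sca1- against unsorted cells. The prefix was fitted as a block in an alternative of the limma fit only. Shared 50-base stretches and exon overlaps were counted in GENCODE vM21 transcripts; promoters are from RefSeq, GRCm38.p6.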

Additional observations from a re-analysis of the deposited data

Results flagged for a closer look

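Dixon's test was run on 65 combinations, the 10 members and the 3 ratios of subunits in each of 5 groups. Of these, 2 held a library far from the others of its group, where chance flags about 1 group in 20. Psmb9 was at 203 FPKM in replicate 1 of Kit+Sca1+, with the nearest other library at 362 FPKM. Tap1 was at 48.2 FPKM in replicate 5 of the unsorted cells, with the nearest at 40.9 FPKM.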

How the results depend on the processing

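Over 100 pairs of a member and a comparison, 1860 values were recomputed: 1730 kept their direction and side of the threshold, 65 lost a call, 41 gained one and 24 turned sign; 59 pairs had none of these changes. Scaling to the same FPKM sum changed most. With it the median of all rows became 0.32 in Kit+Sca1- against MacHigh (0.03 before), the farthest from 0. The median became -0.21 in Kit+Sca1+ against Kit+Sca1- (-0.02 before) and 0.13 in Kit+Sca1+ against MacHigh (0.03 before). Directions under this scaling are relative to that shift. The share of called rows that were higher became 62.8% in Kit+Sca1+ against MacHigh (51.3% before), 71.8% in Kit+Sca1- against MacHigh (51.7%), 58.5% in Kit-Sca1- against MacHigh (48.3%), 32.2% in Kit+Sca1+ against Kit+Sca1- (48.5%), 71.5% in Kit+Sca1- against Kit-Sca1- (47.7%) and, against unsorted cells, 40.9% (52.3%) in Kit+Sca1+, 62.7% (49.7%) in Kit+Sca1-, 9.15% (38.9%) in Kit-Sca1- and 24.4% (53.9%) in MacHigh. Members called then were 3 in Kit-Sca1- against MacHigh, 0 in Kit-Sca1- against unsorted and 1 in MacHigh against unsorted cells (5, 1 and 5 before). In Kit+Sca1+ against Kit+Sca1- all 10 were called in every alternative run. The same scaling ended the calls of H2-D1 in Kit+Sca1+ against MacHigh, Psmb9 and Tapbp in Kit+Sca1- and H2-K1 and Tap2 in Kit-Sca1- against MacHigh, H2-K1 and Tap1 in Kit+Sca1- against Kit-Sca1-, and, against unsorted cells, H2-K1 in Kit+Sca1-, Psmb10 in Kit-Sca1- and H2-K1, B2m, Tap1 and Nlrc5 in MacHigh (adjusted p from 0.0537 to 0.466). It added Tap2 in Kit+Sca1- against Kit-Sca1- (0.36, adjusted p = 0.00287) and Tapbp in Kit+Sca1+ against MacHigh (0.48, adjusted p = 0.0231). H2-D1 in Kit+Sca1+ against MacHigh was also not called with median-of-ratios scaling (0.0525) or the title-number block (0.0568). B2m in Kit+Sca1+ against unsorted cells was not called with no filter on low values (0.0509) or quantile normalization (0.119). With no filter, H2-D1 in Kit+Sca1+ (0.0893) and Tap2 in Kit-Sca1- against MacHigh (0.0542), Tap1 in Kit+Sca1- against Kit-Sca1- (0.0517) and H2-K1 in Kit+Sca1- against unsorted cells were not called; with fits of only the groups compared, H2-D1 in Kit+Sca1+ (0.0944) and Psmb9 in Kit+Sca1- (0.0609) against MacHigh, Tap1 in Kit+Sca1- against Kit-Sca1- (0.0705) and H2-K1 in Kit+Sca1- against unsorted cells (0.0548). Quantile normalization called 0 in Kit-Sca1- against unsorted cells. It moved the share of called rows that were higher to 38.5% in Kit+Sca1+ against Kit+Sca1- and, against unsorted cells, to 64.6% in Kit+Sca1- and 53.2% in Kit-Sca1-.

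With the prefix as a replicate block, 8 members were called in Kit-Sca1- against MacHigh and 10 in MacHigh against unsorted cells; other calls it added are given with the results, besides Tapbp in Kit+Sca1+ against MacHigh (0.29, adjusted p = 0.00107) and B2m in Kit+Sca1- against unsorted cells (-0.24, adjusted p = 0.025), and it removed 0 calls of members. Rows called in Kit-Sca1- against unsorted cells became 3115 with it (1692 before). With the number in the sample titles as a replicate block, 8 were called in MacHigh against unsorted cells; that number paired the libraries in 22 of 46 pairs and in 0 of 10 comparisons.

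Leaving out 1 library, members called ranged from 0 to 1 in Kit-Sca1- against unsorted cells, and called ratio comparisons from 1 to 7 for Psmb8 over Psmb5, 0 to 6 for Psmb9 over Psmb6 and 4 to 7 for Psmb10 over Psmb7, since a smaller group raises the smallest exact p.

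The values that turned sign were small. With the same sum they were, on the log2 scale, 0.075 for B2m and 0.074 for Psmb10 in Kit+Sca1+ against MacHigh, 0.19 for Tap2 in Kit+Sca1- against MacHigh, 0.023 for Psmb8 in Kit-Sca1- against MacHigh, 0.055 for B2m, 0.0095 for Psmb9 and 0.071 for Tapbp in Kit+Sca1- against Kit-Sca1-, and, against unsorted cells, 0.0081 for Tapbp in Kit+Sca1-, -0.063 for Tapbp in Kit-Sca1- and -0.00021 for Tap2 in MacHigh. Quantile normalization gave 0.095 for Psmb10 in Kit+Sca1+ against MacHigh, 0.0076 for Psmb8 in Kit-Sca1- against MacHigh, -0.0092 for Tap2 in Kit+Sca1- and -0.077 for Tapbp in Kit-Sca1- against unsorted cells. The title-number block gave 0.014 for B2m in Kit+Sca1+ against MacHigh. Leaving out 1 library, B2m ranged from -0.089 to 0.031 and Psmb10 from -0.13 to 0.011 in Kit+Sca1+ against MacHigh, Psmb8 from -0.14 to 0.012 in Kit-Sca1- against MacHigh and, against unsorted cells, Tap2 from -0.052 to 0.12 in Kit+Sca1- and, in Kit-Sca1-, Psmb9 from -0.13 to 0.0051 and Tapbp from -0.052 to 0.089. None of these was called before. The cause was not tested. The depth is unknown, so no counting error can be given.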
